A study of Mus musculus with 6 samples.

Results

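The genes examined here are 10 genes of the major histocompatibility complex (MHC) class I presentation route and its interferon setting, taken by name from the count table: *B2m*, *H2-D1*, *H2-K1*, *Tap1*, *Tap2*, *Tapbp*, *Psmb8*, *Psmb9*, *Ifitm3* and *Bst2*. All 10 were among the 32285 genes of the table. Single cells of the striatum were enriched with magnetic beads against the astroglial surface antigen ACSA2 and their RNA was counted with unique molecular identifiers (UMIs) on a droplet platform that reads transcript 3' ends. The mice were wild type C57BL/6 males (C57BL/6Jax in the study's methods), either at postnatal day 3 (P3, early postnatal) or at 3 months (3m, adult), with 3 libraries per age and no treatment. Each preparation pooled 2 to 5 animals, so the p-values below measure the spread between pools of cells. The enrichment did not remove every other cell, and the authors' cluster names give endothelial cells, microglia, pericytes (PER_6) and oligodendrocytes beside the astroglia.

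MHC class I molecules show peptides from inside a cell to cytotoxic T cells. The heavy chain, encoded here by *H2-K1* and *H2-D1*, folds with the light chain *B2m* and is loaded in the endoplasmic reticulum with peptides that the transporter *Tap1*/*Tap2* brings in and that *Tapbp* (tapasin) helps to select. The peptides come from the proteasome, in which *Psmb8* and *Psmb9* replace constitutive catalytic subunits to form the immunoproteasome. *Ifitm3* and *Bst2* (tetherin) are membrane proteins that restrict virus entry and virus release. Interferons are known to raise the whole set, and resting brain parenchyma is known for low class I levels.

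In the annotation of the build used by the study (mm10, GRCm38), 7 of the 10 genes lie on chromosome 17 within 1352 kb: *Tapbp* (chr17:33915899-33929292), *H2-K1* (chr17:33996017-34000347), *Psmb9* (chr17:34181987-34187764), *Tap1* (chr17:34187553-34197225), *Psmb8* (chr17:34197721-34201454), *Tap2* (chr17:34203527-34216321) and *H2-D1* (chr17:35262730-35267499). *B2m* lies at chr2:122147686-122153083, *Ifitm3* at chr7:141009586-141010770 and *Bst2* at chr8:71534255-71537456. *Psmb9* and *Tap1* lie on opposite strands and overlap by 212 bases at their starts. RefSeq promoter windows on GRCm38.p6 were at hand for 9 of the 10 genes, all but *Tap2*. The 5 windows below are those of the heavy and light chains and of both virus restriction genes, shown because the results below turn on these genes. Each runs 5' to 3' from 250 bases before the start to 30 after it, and capitals mark letters that matched a searched motif. Promoter windows were chr2:122147437-122147716 (plus strand) for *B2m*, chr17:35262844-35263123 (plus) for *H2-D1*, chr17:34000318-34000597 (minus) for *H2-K1*, chr7:141010715-141010994 (minus) for *Ifitm3* and chr8:71537443-71537722 (minus) for *Bst2*.
B2m: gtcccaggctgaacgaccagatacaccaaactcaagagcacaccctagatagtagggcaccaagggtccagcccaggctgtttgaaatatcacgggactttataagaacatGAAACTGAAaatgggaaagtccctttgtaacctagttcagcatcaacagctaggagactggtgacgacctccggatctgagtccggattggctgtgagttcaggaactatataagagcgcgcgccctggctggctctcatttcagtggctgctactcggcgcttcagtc
H2-D1: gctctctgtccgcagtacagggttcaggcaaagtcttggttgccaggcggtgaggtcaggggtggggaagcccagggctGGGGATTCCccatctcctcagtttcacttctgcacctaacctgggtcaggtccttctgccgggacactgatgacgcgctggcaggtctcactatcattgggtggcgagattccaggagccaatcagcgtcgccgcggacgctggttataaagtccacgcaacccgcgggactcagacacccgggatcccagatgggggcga
H2-K1: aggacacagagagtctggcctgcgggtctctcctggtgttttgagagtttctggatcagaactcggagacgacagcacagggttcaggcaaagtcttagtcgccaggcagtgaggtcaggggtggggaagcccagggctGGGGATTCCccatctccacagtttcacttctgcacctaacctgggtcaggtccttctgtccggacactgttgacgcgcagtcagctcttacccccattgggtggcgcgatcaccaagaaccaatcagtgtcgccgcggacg
Ifitm3: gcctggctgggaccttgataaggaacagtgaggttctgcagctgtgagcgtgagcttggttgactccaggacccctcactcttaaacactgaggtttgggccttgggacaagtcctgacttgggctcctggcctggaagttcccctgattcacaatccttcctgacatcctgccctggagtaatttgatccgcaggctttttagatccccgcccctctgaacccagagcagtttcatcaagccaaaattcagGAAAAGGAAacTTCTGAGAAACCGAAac
Bst2: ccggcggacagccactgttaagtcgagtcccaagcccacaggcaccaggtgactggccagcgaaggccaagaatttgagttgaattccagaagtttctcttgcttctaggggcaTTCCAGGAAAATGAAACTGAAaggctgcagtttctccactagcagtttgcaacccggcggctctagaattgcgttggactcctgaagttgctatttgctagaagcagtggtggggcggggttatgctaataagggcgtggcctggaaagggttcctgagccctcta

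Motifs of 3 kinds were searched on both strands. The core letters of the interferon-stimulated response element, GAAANNGAA, were found in 3 of the 9 genes with a window (*B2m*, *Ifitm3* and *Bst2*) against 8.56% of 32851 promoter windows. The letters of the interferon-gamma activated STAT motif, TTCNNNGAA, were found in 3 (*Psmb8*, *Ifitm3* and *Bst2*) against 8.30%. In *Bst2* and in *Ifitm3* matches of both motifs overlap. The letters GGGGATTCC, a kappa-B motif known from class I promoters, were found in *H2-D1* and *H2-K1* against 0.250% of all windows. Since this motif was already known from class I promoters, a match in class I heavy chain genes was likely beforehand. The share of all windows is therefore no test of enrichment for this motif. No match was found in the windows of *Tap1*, *Psmb9* and *Tapbp*, which says only that these letters are absent there. A match is a description of the letters and not a measured binding site.

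The files held 16690 cell barcodes, of which 14373 carried a cluster name. No removal of doublets is given in the sources used here, and none was made here. The 3m libraries held 5471573 to 10522151 UMIs each, the P3 libraries 32193875 to 37795021. Barcode sequences found in more than 1 library numbered 37. Levels are given in CPM, the UMIs of a gene per 1000000 UMIs summed over the cells of a type in a library, and since only 3' ends were counted they were not divided by length. Named types were checked against markers, and the 10 leading genes included *Cldn5* in END_7, *Ly6c1* and *Slco1a4* in END_17, and *Cx3cr1* and *C1qa* in MIC_16. PER_6 was led by the smooth muscle genes *Acta2* and *Tagln* and held 1 pericyte marker, *Rgs5*, among these 10, with smooth muscle markers at 2358 to 9639 CPM and pericyte markers at 10071 to 15001 CPM, so it is called by its cluster name. Replicate 1 stood apart at both ages in the class I genes: it held the highest *H2-K1* level in 9 of 9 pairs of type and age (median 2.00 times the mean of the other replicates) and the highest *H2-D1* level in 9 of 10, whereas it was highest in 2 of 6 for *Psmb8* and 4 of 10 for *Ifitm3*. Among all genes tested, 2.68% in astroglia and 4.43% in endothelial cells were at least 1.5 times higher in replicate 1 at both ages. Same-numbered P3 and 3m libraries come from different animals, and their internal sample names in the labels also match in number. The labels give no batch, and what else these libraries share is not known. *H2-K1*, *H2-D1* and the H2-Q and H2-T genes are close copies, as are the *Ifitm* genes, so reads could have been split between them. Counting error alone is covered wherever numbers of UMIs are given.

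Across cell types the members were highest in the vascular and myeloid cells. Among types present in 3 libraries of an age, 8 of the 10 genes had their highest mean level in the adult endothelial cluster END_17, and *B2m* and *Psmb8* had theirs in adult microglia. *Tap1* was slightly higher (24.1 CPM, 4 UMIs) in the 14 adult cells of cluster LOW_23, which 1 library held, than its mean of 23.1 CPM in END_17. *B2m* was detected at 1560.3, 1161 and 1255 CPM in adult microglia, at 1057, 662 and 625 CPM in adult endothelial cells, and at 50.9 to 94.4 CPM in adult astroglia. Adult oligodendrocytes had the lowest adult *B2m* levels of these types, 10.7 to 19.5 CPM. The ranges of microglia, endothelial cells, astroglia and oligodendrocytes at 3m did not overlap for *B2m*. In PER_6 (628 cells at P3), *B2m* stood at 198, 138 and 157 CPM, which overlapped with 256, 190 and 206 CPM in the P3 endothelial cells.

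*Ifitm3* had another order. It was highest in adult endothelial cells (2094, 1911 and 2260 CPM) and next in PER_6 (1241, 1158 and 980 CPM at P3). The adult cluster LOW_21, of 68 cells with pericyte markers, had 1039, 1014 and 894 CPM, within or near the range of PER_6. Adult microglia had 237, 149 and 131 CPM, and oligodendrocytes had 0.262 to 3.43 CPM. In the oligodendrocyte precursor cluster OPC_18 at P3 there were 0 *Ifitm3* UMIs, which allows up to 5.04 CPM, and in oligodendrocytes 0 *Tap1* UMIs, which allows up to 0.268 CPM over the 3 libraries. *Bst2* was at 395, 208 and 187 CPM in adult microglia and at 315, 331 and 292 CPM in adult endothelial cells, ranges that overlapped, and at 2.59 to 7.59 CPM in adult astroglia.

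**Figure D1:**
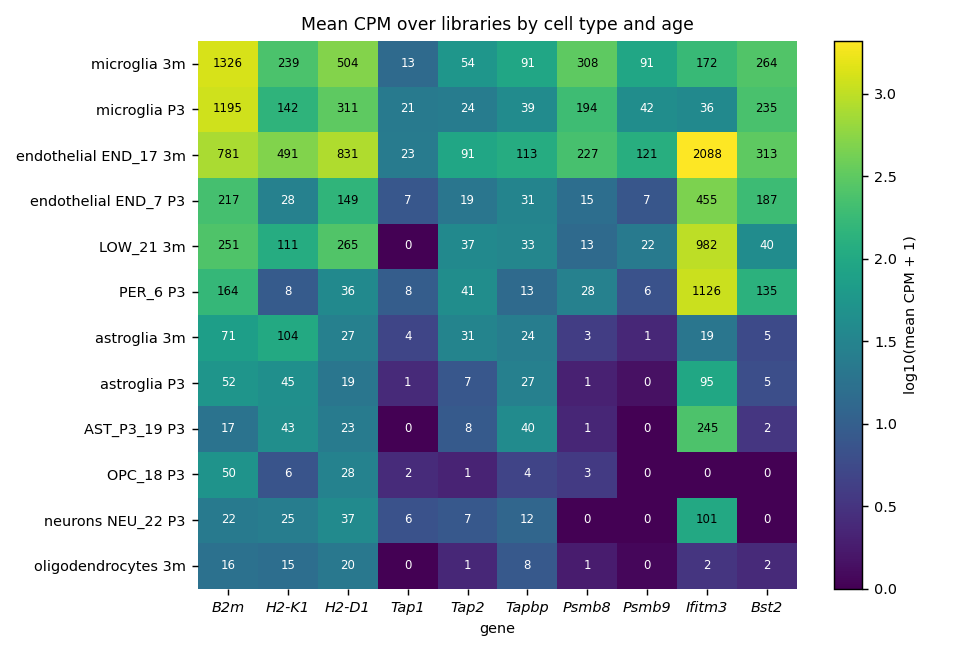
Mean CPM over libraries of each of the 10 genes (columns) by cell type and age (rows), printed in each cell and coloured by log10(mean CPM + 1). Among these types, adult endothelial cells (END_17) hold the highest mean of 8 genes and adult microglia that of *B2m* and *Psmb8*, while oligodendrocytes sit at the low end.

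The comparison with the most members changed was that of the endothelial cells, which asks how vascular cells carried through the astroglial enrichment differ between adult and early postnatal striatum. The authors' clustering put adult endothelial cells in END_17 (59, 47 and 57 cells, 256977 to 562163 UMIs per library) and early postnatal ones in END_7 (173, 172 and 260 cells, 4200780 to 7386516 UMIs). Cluster and age therefore cannot be told apart here. Of the 10 members, 9 rose in adult cells past an adjusted p of 0.05 and a 2-fold change (edgeR quasi-likelihood test over 10271 genes), against 11.6% of all genes called higher. In all 10 genes every adult library was above every P3 library. This is a description, since the share of all genes with such an order was not counted. The median log2(fold change) of the members was 2.14, and that of all genes tested was -0.02.

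The class I chains rose in adult endothelial cells. *H2-K1* stood at 802, 304 and 367 CPM at 3m and at 39.3, 22.6 and 22.3 CPM at P3. Replicate 1 was the highest of each age, and the ages did not overlap. This was a 16.6-fold difference (log2(fold change) 4.06 ± 0.30 SE, padj = 5.53e-09, edgeR, n = 3 and 3 libraries). *H2-D1*, the other classical heavy chain of this strain, stood at 1283, 662 and 547 CPM at 3m and at 277, 89.7 and 79.6 CPM at P3. Again replicate 1 was the highest of each age, and the difference was 5.34-fold (2.42 ± 0.37, edgeR padj = 4.38e-05). The light chain *B2m* stood at 1057, 662 and 625 CPM against 256, 190 and 206 CPM, a 3.38-fold difference (1.76 ± 0.21, edgeR padj = 2.68e-06).

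Both immunoproteasome subunits rose in adult endothelial cells. *Psmb8* stood at 219, 210 and 251 CPM in adult endothelial cells and at 12.7, 15.2 and 16.0 CPM at P3. Means were 227 ± 21.3 and 14.6 ± 1.74 CPM (SD, n = 3), a 14.5-fold difference (log2(fold change) 3.86 ± 0.20, edgeR padj = 4.52e-11). *Psmb9* stood at 133, 128 and 99.8 CPM against 8.68, 4.52 and 7.18 CPM, a 16.1-fold difference (4.01 ± 0.24, edgeR padj = 2.76e-10). Every adult library was over 10 times the highest P3 library in both genes. Of the constitutive catalytic and other beta subunits, 0 of 7 changed by the same edgeR call, with a median log2(fold change) of -0.40.

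Expressed as a share, UMIs of the inducible subunits *Psmb8*, *Psmb9* and *Psmb10* made up 45.0 to 47.8% of the UMIs of these 3 and their constitutive counterparts *Psmb5*, *Psmb6* and *Psmb7* in adult endothelial libraries (658 of 1407 UMIs in all). In P3 endothelial libraries the share was 7.79 to 9.52%, close to 7.91 to 9.08% in PER_6. Microglia had 51.9 to 63.5% at 3m and 35.1 to 39.3% at P3. Astroglia had 7.82 to 9.50% at 3m and 4.41 to 5.32% at P3, and oligodendrocytes 1.86 to 2.15%. The share was thus higher in every adult library than in every P3 library in all 3 types measured at both ages, with adult endothelial cells nearer to microglia than to the other types. In astroglia most inducible UMIs were those of *Psmb10* (221 of 242 at 3m and 2985 of 3091 at P3). *Psmb10* was not called there (log2(fold change) 0.51, edgeR padj = 0.0348), and the 7 constitutive beta subunits had a median of -0.54. The astroglial share therefore says little of *Psmb8* and *Psmb9*.

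**Figure D2:**
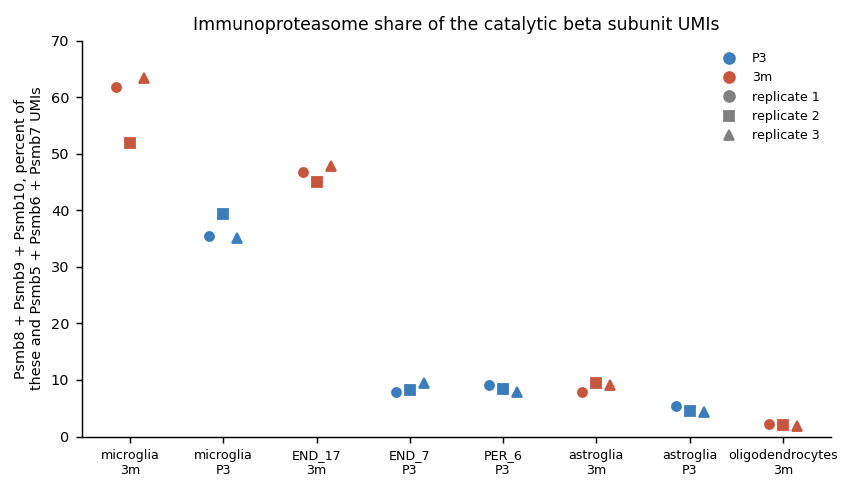
Share of inducible catalytic subunit UMIs (*Psmb8*, *Psmb9*, *Psmb10*) among inducible and constitutive catalytic subunit UMIs, in percent, by cell type and age, with a point per library. Adult endothelial libraries lie at 45.0 to 47.8% and P3 endothelial libraries at 7.79 to 9.52%.

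The loading machinery rose by smaller factors. *Tap2* stood at 103, 81.7 and 87.6 CPM against 22.1, 16.2 and 18.3 CPM (log2(fold change) 2.19 ± 0.21, edgeR padj = 1.8e-07). *Tapbp* stood at 149, 93.4 and 94.9 CPM against 30.7, 29.8 and 31.8 CPM (1.81 ± 0.21, edgeR padj = 1.61e-06). For both genes the ages were far apart relative to the spread of the libraries. *Tap1* rested on 30 and 138 UMIs, at 33.8, 23.3 and 12.2 CPM against 8.25, 4.76 and 8.12 CPM (1.63 ± 0.39, edgeR padj = 0.00334). Its call was lost without adult replicate 1 (1.07, padj = 0.175) and without replicate 1 of both ages (1.16, padj = 0.144).

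*Ifitm3* stood at 2094, 1911 and 2260 CPM in adult endothelial cells and at 449, 460 and 457 CPM at P3. Means were 2088 ± 175 and 455 ± 5.70 CPM (SD, n = 3), a 4.28-fold difference (log2(fold change) 2.10 ± 0.21, edgeR padj = 2.43e-07). *Bst2* had 315, 331 and 292 CPM against 201, 161 and 200 CPM. Its log2(fold change) of 0.64 ± 0.17 passed the adjusted p (edgeR padj = 0.00764) but not the 2-fold limit.

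Other genes of the route and of interferon responses, taken as whole lists, also moved in the endothelial cells. Of all 10271 genes tested there, 11.6% were called higher, and 1097 genes were called lower. Of 13 other class I genes tested, 6 were higher at 3m by the same call: the non-classical heavy chains *H2-T23* (log2(fold change) 3.73), *H2-Q4* (3.52) and *H2-M3* (1.12), the third inducible subunit *Psmb10* (1.82), the tapasin relative *Tapbpl* (1.74) and the peptide trimming enzyme *Erap1* (1.20). The lipid presenting *Cd1d1* was lower (-2.63). Of 22 other interferon-induced genes tested, 20 were higher, with a list median of 2.05, among them *Iigp1* (5.91), *Ifit3* (5.16), *Rsad2* (4.59), *Ifit1* (4.42) and *Gbp2* (3.75). Among 14 interferon receptor and signalling genes 5 were higher, among them the transcription factors *Irf1* (2.55), *Stat2* (2.00), *Irf7* (1.5) and *Irf9* (1.01), and the receptor chain *Ifngr2* was lower (-1.37). No class II gene had enough UMIs to be tested.

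Markers of other cells were measured in the same libraries. In END_17 the summed level of microglia markers was 30.2 to 58.4 CPM, below the 62.4 to 64.2 CPM of END_7. Lymphocyte markers were 7.12 to 42.8 CPM in END_17 and 0.714 to 1.28 CPM in END_7. Pericyte markers were 6296 to 6665 CPM in END_17 and 1972 to 3493 CPM in END_7. Smooth muscle markers (156 to 818 against 24.0 to 118 CPM), oligodendrocyte markers (119 to 634 against 0.996 to 1.90 CPM) and erythroid genes (14039.8 to 30929 against 7057 to 19586 CPM) were also higher in END_17, as were the endothelial markers themselves (12632 to 18877 against 4886 to 6506 CPM). Median UMIs per cell were 4258 to 8307 in END_17 and 22396 to 32603 in END_7, and median mitochondrial shares were 2.97 to 5.84% and 1.25 to 2.33%. In the clusters with the most pericyte markers, *H2-K1* stood at 5.10 to 10.4 CPM in PER_6 (P3) and at 96.7 to 135 CPM in LOW_21 (3m). Both lay below END_17, with PER_6 also below END_7 and LOW_21 above it. *Ifitm3* in PER_6 (980 to 1241 CPM) and LOW_21 (894 to 1039 CPM) lay above END_7 and below END_17. So did *Tap2* in PER_6 (33.5 to 51.0 CPM). Another fit left out cells that held a UMI of the microglia, macrophage or lymphocyte markers. In it 8 of the 9 members tested were called higher, against 628 of 6135 genes. There *H2-K1* stood at 4.29 and *Psmb8* at 3.68 on the log2 scale. The part of mural, oligodendrocyte and erythroid RNA and of cell quality was not tested.

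**Figure D3:**
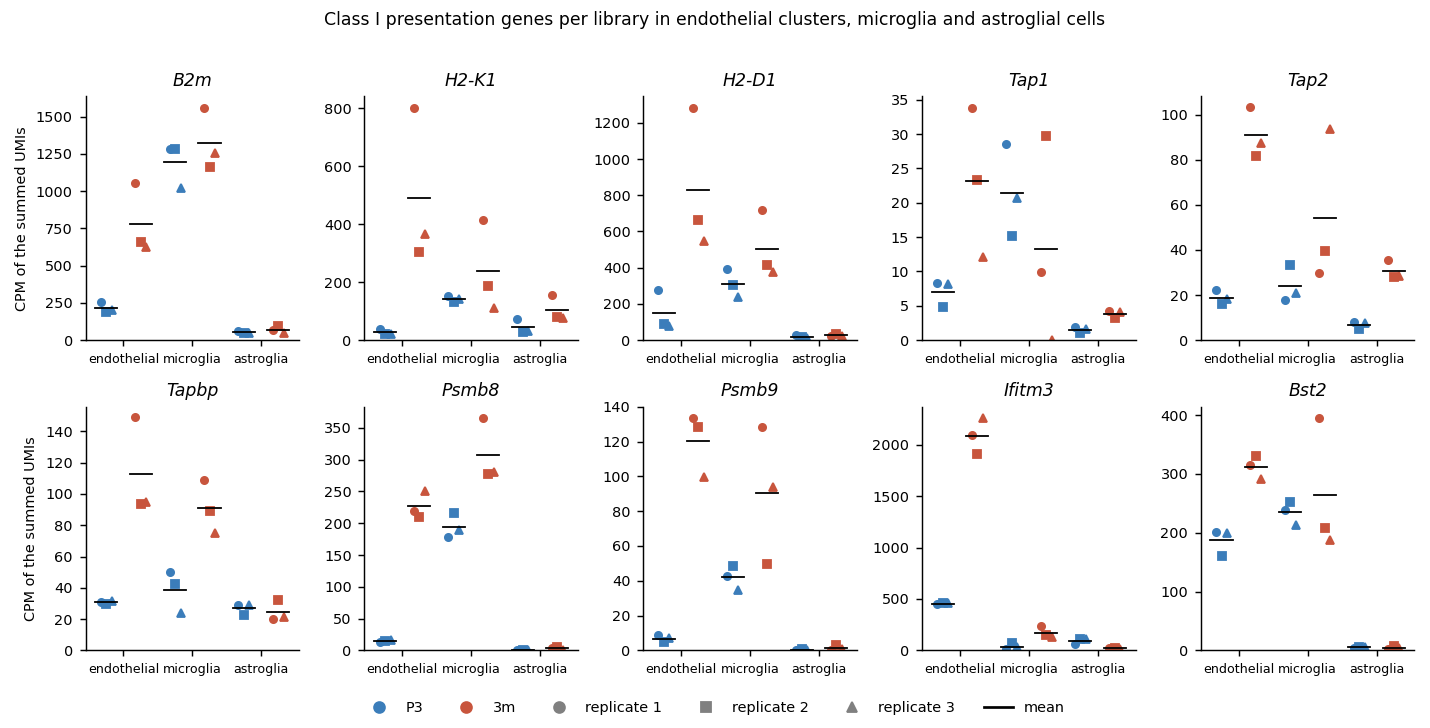
Level of each gene in CPM (linear axes from 0, one per gene) in endothelial clusters, microglia and astroglia, with blue points for P3 libraries, red for 3m, the marker shape for the replicate and a line at the mean. In endothelial cells every 3m point lies above every P3 point for all 10 genes, while *Ifitm3* in astroglia is lower in every 3m library. The share of all genes with such an order was not counted.

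Microglia, the resident macrophages of the brain, held 20, 23 and 17 cells per library at 3m and 34, 44 and 46 at P3. At 53392 to 101265 UMIs (3m) and 280861 to 329377 UMIs (P3) per library, 7 of the members could be tested. *Ifitm3* and *Tapbp* rose at 3m, against 6.68% of 2679 genes called higher. *Ifitm3* stood at 237, 149 and 131 CPM at 3m and at 10.7, 66.8 and 31.1 CPM at P3 (46 and 34 UMIs). This was a 5.08-fold difference (log2(fold change) 2.34 ± 0.48, edgeR padj = 0.0049), lost without adult replicate 1 (1.97, padj = 0.0995). *Tapbp* stood at 109, 89.3 and 74.9 CPM against 49.8, 42.5 and 24.2 CPM (1.37 ± 0.41, edgeR padj = 0.0411). Its call held in 2 of 9 alternatives, with padj from 0.0591 to 0.267 where lost, any adult replicate left out among them.

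Macrophage markers moved with age in the same cluster, at 393 to 839 CPM at 3m and 39.5 to 179 CPM at P3. Without cells that held a macrophage marker UMI, 46 adult and 90 P3 cells were left, and neither *Ifitm3* nor *Tapbp* had enough UMIs to be tested. There *Ifitm3* stood at 52.6, 13.2 and 24.5 CPM at 3m against 12.4, 86.0 and 6.55 CPM at P3 (6 and 23 UMIs), with overlapping ages. *Tapbp* stood at 92.0, 52.7 and 97.9 CPM against 43.5, 47.3 and 26.2 CPM (15 and 22 UMIs), with every adult library higher.

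The other members did not pass the test in microglia. *B2m* stood at 1560.3, 1161 and 1255 CPM against 1285, 1281 and 1018 CPM (log2(fold change) 0.26, edgeR padj = 0.508), with overlapping ages. *Psmb8* stood at 365, 278 and 281 CPM against 178, 216 and 190 CPM (0.79, edgeR padj = 0.0549), with every adult library higher. *H2-D1* (0.84, edgeR padj = 0.0787), *H2-K1* (0.95, padj = 0.0959) and *Bst2* (0.32, padj = 0.538) also missed the threshold. *Psmb9*, at 128, 49.6 and 93.6 CPM against 42.7, 48.6 and 34.5 CPM, and *Tap1* and *Tap2* had too few UMIs to be tested.

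Astroglia, the cells the preparation was enriched for, were compared over 213, 546 and 359 adult and 1974, 3068 and 3736 P3 cells. Cluster AST_P3_19, led by genes of multiciliated cells, was left out of these sums. Of 9 members tested 5 were called by edgeR over 13469 genes: 4 rose at 3m, against 15.9% of all genes called higher, and 1 fell, against 16.0% called lower. *Psmb9* had 7 and 31 UMIs and was not tested. The members that rose were *Tap2*, *H2-K1*, *Tap1* and *Psmb8*, and the one that fell was *Ifitm3*.

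*Tap2*, the second transporter chain, stood at 35.4, 28.2 and 28.5 CPM in adult astroglia and at 8.02, 5.11 and 7.63 CPM at P3. Means were 30.7 ± 4.08 and 6.92 ± 1.58 CPM (SD, n = 3), a 5.03-fold difference (log2(fold change) 2.33 ± 0.22, edgeR padj = 1.16e-06). It was called in all 18 alternative fits. The adult astroglial level of *Tap2* was 32.6 to 34.5% of the endothelial level in the same library. Summed endothelial markers in adult astroglia were at 0.00458 to 0.0481% of their level in endothelial cells.

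*H2-K1* stood at 156, 78.6 and 78.1 CPM in adult astroglia and at 72.4, 29.1 and 32.1 CPM at P3, with replicate 1 about as far above the others at both ages. The difference was 2.63-fold (log2(fold change) 1.40 ± 0.33, edgeR padj = 0.0028). It fell short of the 2-fold limit without adult replicate 1 (0.97, padj = 0.0316) and of both limits under a stricter cell filter (0.75, padj = 0.0782). The filter, over 1000 genes and under 5% mitochondrial UMIs, bears on an age gap in the cells: adult astroglia had median mitochondrial shares of 6.0 to 8.2% and P3 astroglia 1.3 to 2.5%. The part of cell quality in this result was not tested further.

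*Tap1* and *Psmb8* rested on few UMIs. *Tap1* stood at 4.32, 3.25 and 4.07 CPM against 1.85, 1.03 and 1.58 CPM (17 and 110 UMIs, log2(fold change) 1.56 ± 0.44, edgeR padj = 0.00967). Its call held in 10 of 14 alternatives and was lost without adult replicate 3 (edgeR padj = 0.0559) and under the stricter cell filter. It was also lost in the telencephalic sub-clusters named below and without cells that held vascular or myeloid marker UMIs. *Psmb8* stood at 3.46, 4.88 and 0.679 CPM against 1.13, 0.763 and 1.13 CPM (14 and 75 UMIs, 1.81 ± 0.56, edgeR padj = 0.016). Its ages overlapped, and the call was lost without adult replicate 1 (1.70, padj = 0.0621) or adult replicate 2 (1.07, padj = 0.293). Both genes were thus near the limit of what this depth could show.

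*Ifitm3* went the other way. It stood at 19.01, 23.9 and 14.3 CPM in adult astroglia and at 64.7, 108 and 111 CPM at P3. Every adult library was below every P3 library, a 4.36-fold lower level (log2(fold change) -2.12 ± 0.27, edgeR padj = 2.06e-05). Within the telencephalic sub-clusters alone (7 and 14 at 3m, 0, 1, 9 and 11 at P3) the difference was smaller, at -0.68 (padj = 0.0359), and missed the 2-fold limit.

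The light chain *B2m* (66.5, 94.4 and 50.9 against 63.8, 45.8 and 46.7 CPM) had a log2(fold change) of 0.64 ± 0.22, which passed the adjusted p (edgeR padj = 0.0266) but not the 2-fold limit, with overlapping ages. *H2-D1* stood at 25.1, 32.5 and 23.1 CPM against 27.7, 15.7 and 14.05 CPM (0.69, edgeR padj = 0.0474). Without P3 replicate 1, the highest of its age, *H2-D1* was called (1.07, padj = 0.000317). *Tapbp* (0.08, edgeR padj = 0.785) and *Bst2* (0.06, padj = 0.913) did not pass, and the sign of such small values depends on the scaling.

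**Figure D4:**
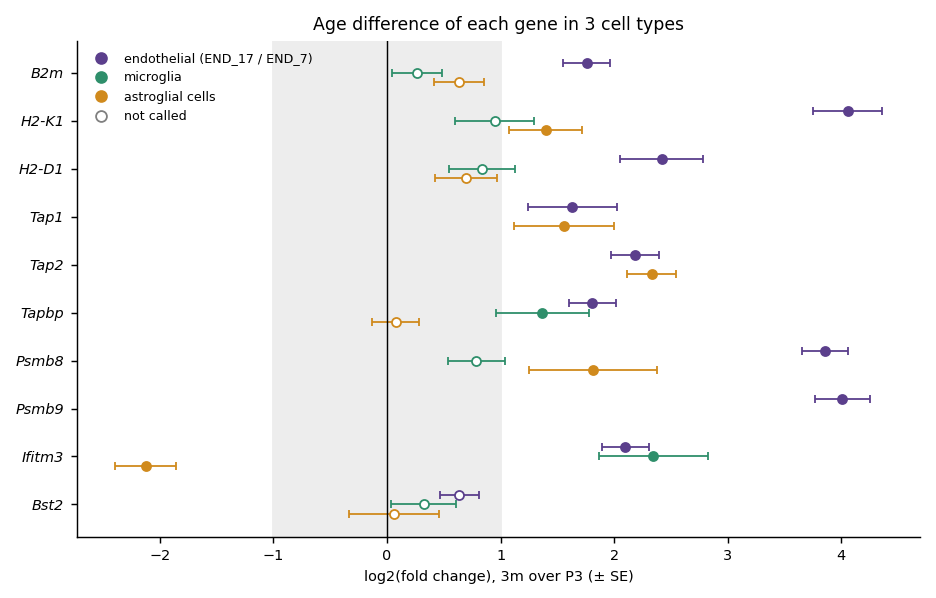
Log2(fold change) of each gene, 3m over P3, in astroglia, microglia and endothelial clusters, with bars of 1 SE. Filled points passed the call, the grey band marks changes under 2-fold, and genes with too few UMIs for a test have no point. In endothelial cells 9 of 10 points are filled and right of the band, and *Ifitm3* is the only filled point left of it, in astroglia.

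Related genes were called in both directions in astroglia, where 15.9% of all genes tested were called higher and 16.0% lower. Of 12 other class I genes tested, *H2-M3* (log2(fold change) 2.40) and *H2-T23* (1.69) were higher at 3m, and *Cd1d1* (-1.80) and the proteasome activator subunit *Psme1* (-1.29) were lower. These class I counts lay near the shares of all genes. Of 14 other interferon-induced genes tested 5 were higher and 3 lower. *Ifit3*, an inhibitor of viral translation and replication, had the largest rise of them, from 0.856, 1.29 and 0.917 CPM at P3 to 23.3, 24.9 and 21.1 CPM at 3m (4.64 on the log2 scale). *Ifi27* (2.64), *Igtp* (1.88), *Xaf1* (1.73) and *Irgm1* (1.36) also rose, whereas *Ifitm2* (-2.42), a neighbour and relative of *Ifitm3*, *Ly6e* (-1.99) and *Ifit2* (-1.06) fell. Among 13 receptor and signalling genes *Ifngr1* (1.46) and *Tyk2* (1.08) were higher and *Ifngr2* (-1.12) lower, counts near or below the shares of all genes. None of 7 constitutive beta subunits was called. The class II gene *H2-Ab1* had 0 UMIs in adult astroglia, which allows up to 0.671 CPM over the group, and 2.48 to 3.32 CPM at P3, so its adult level was at least 4.50-fold lower.

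RNA of other cells in the astroglial sums was read from markers. At 3m, *B2m* in astroglia was 6.30 to 14.3% and *H2-K1* 19.5 to 25.9% of the endothelial level of the same library, beside summed endothelial markers at 0.00458 to 0.0481%. *Ifitm3* was at 0.631 to 1.25% and *Psmb8* at 0.271 to 2.32%. At P3 the endothelial markers were at 0.274 to 0.696%, *Ifitm3* at 14.4 to 24.4% and *H2-K1* at 129 to 184%, so that P3 astroglia had a higher *H2-K1* level than P3 endothelial cells. Against microglia, *Psmb8* in astroglia was at 0.242 to 1.76% (3m) and 0.354 to 0.633% (P3), beside summed microglia markers at 0.277 to 0.570% and 0.178 to 0.269%. The range for *Psmb8* held that of the markers at 3m and lay above it at P3. A fit left out cells that held a UMI of the endothelial, pericyte, microglia or macrophage markers. In it 3 of the 8 members tested were called, against 3651 of 12175 genes. *Tap2* and *H2-K1* were still called higher and *Ifitm3* lower, while the *Tap1* call was lost. Beyond this fit, the part of endothelial and of microglial RNA was not tested. Oligodendrocyte markers were at 705 to 1861 CPM in adult and 5.24 to 6.40 CPM in P3 astroglia. Smooth muscle markers were at 0.679 to 1.08 CPM in adult and 46.0 to 83.2 CPM in P3 astroglia. Pericyte markers were at 65.6 to 100 CPM and 30.3 to 60.9 CPM. The part of oligodendrocyte and smooth muscle RNA was not tested.

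The authors divided the astroglia into numbered sub-clusters, of which 6 and 8 are dividing progenitors, 8, 2 and 0 lie on a path from 6 to the adult 7 and 14, 1, 9 and 11 resemble 0, and 3, 4, 5, 10, 12 and 15 at P3 with 13 and 16 at 3m clustered with cells from outside the telencephalon in a reference atlas and are called non-telencephalic here. *B2m* and *Ifitm3* ran in opposite order among several of them, but not among all. Sub-clusters 2, 6 and 8 had higher means than sub-cluster 0 for both genes. For *B2m* these were 57.0, 58.1 and 61.6 against 48.5 CPM, and for *Ifitm3* 108, 84.6 and 78.3 against 47.9 CPM. Sub-cluster 11 had the highest *B2m* levels of the sub-clusters with 3 P3 libraries, at 119, 95.5 and 75.2 CPM, and low *Ifitm3*, at 7.93, 12.1 and 11.1 CPM. The non-telencephalic sub-cluster 3 had *B2m* at 30.8, 19.9 and 16.3 CPM and *Ifitm3* at 234, 323 and 284 CPM. These ranges did not overlap for either gene.

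Sub-cluster 15 was like sub-cluster 3, with *B2m* at 24.1, 13.8 and 12.3 CPM and *Ifitm3* at 337, 240 and 252 CPM. Sub-cluster 5 had *B2m* at 35.2, 13.99 and 13.1 CPM and *Ifitm3* at 166, 256 and 188 CPM. On the telencephalic path, sub-cluster 0 had *B2m* at 45.1, 50.7 and 49.7 CPM and *Ifitm3* at 45.1, 39.0 and 59.5 CPM, so *Ifitm3* was lower and *B2m* higher than in sub-clusters 3, 5 and 15. Sub-cluster 12 came from P3 replicate 3 alone (273 cells, median 952 UMIs per cell, endothelial markers at 877 CPM), and its 110 CPM of *B2m* and 253 CPM of *Ifitm3* are not compared. The heavy chain *H2-D1* was high in replicate 1 of sub-clusters 3 (89.3 against 14.8 and 15.4 CPM) and 5 (85.5 against 12.7 and 10.7 CPM). The adult non-telencephalic sub-clusters 13 and 16 had little *Ifitm3*, with 6 and 1 UMIs, and sub-cluster 13 had *B2m* at 141 and 82.0 CPM in the replicates that held it. These levels are descriptions, since the sub-clusters were made from the expression of the same cells.

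**Figure D5:**
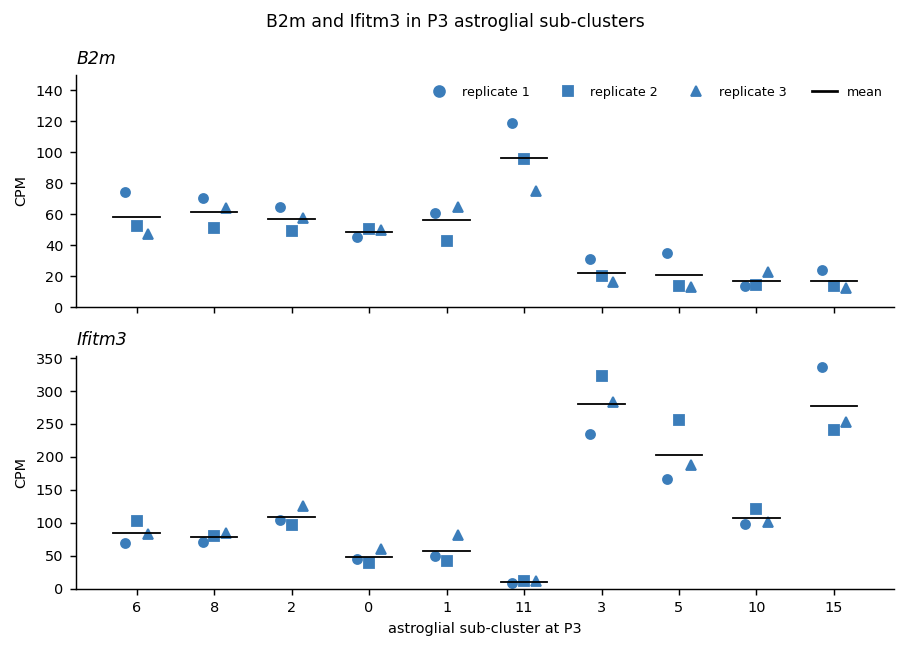
CPM of *B2m* (top) and *Ifitm3* (bottom) in the P3 astroglial sub-clusters present in all 3 libraries, with a point per library and a line at the mean. Cells of cluster AST_P3_19 are included. *Ifitm3* is high in sub-clusters 3 (234 to 323 CPM) and 15 (240 to 337 CPM) and low in sub-cluster 11 (7.93 to 12.1 CPM), where *B2m* is at 75.2 to 119 CPM.

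Along the authors' pseudotime from sub-cluster 6, *Ifitm3* at P3 was at 59.9 to 151 CPM over bins 2 to 12, at 42.6 to 77.2 CPM in bin 13 and at 32.1 to 50.9 CPM in bin 14. In the adult bins it was at 0 to 72.4 CPM (bin 16), 10.2 to 41.9 CPM (bin 17) and 9.12 to 22.02 CPM (bin 18), so bins 16 and 17 overlapped with the late P3 bins. *Tap2* was at 0 to 13.4 CPM in bins 2 to 14 and at 18.3 to 66.1 CPM in bins 16 to 18. The late bins hold adult cells, so position along the path and age cannot be told apart there. Lower *Ifitm3* levels in late than in early bins were already seen within P3 cells, whereas the higher *Tap2* level was seen in the adult bins.

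Age differences were also set against each other between cell types in fits of both types together, over 10718 genes. The rise was larger in endothelial cells than in astroglia for 5 members, against 8.84% of genes: *Ifitm3*, *H2-K1*, *Psmb8*, *H2-D1* and *Tapbp*. The difference was largest for *Ifitm3*, at 4.06 ± 0.31 on the log2 scale (edgeR padj = 3.3e-12), since it rose in one type and fell in the other. For *Tap1* (-0.02 ± 0.40) and *Tap2* (-0.25 ± 0.27) the estimated difference was smaller than its SE, and neither passed the test (edgeR padj = 0.989 and 0.577). In microglia *Ifitm3* alone had a larger rise than in astroglia (4.14 ± 0.52, edgeR padj = 6.91e-07), against 1.84% of genes. Without cells that held a macrophage marker UMI this difference was 1.44 ± 1.01 and did not pass (edgeR padj = 0.551).

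In the sum of all barcodes of a library, where fewer cells of a type and less RNA per cell cannot be told apart, *H2-K1* (log2(fold change) 1.21, edgeR padj = 0.019), *Psmb8* (1.77, padj = 6.27e-05) and *Psmb9* (2.05, padj = 0.000182) rose at 3m, against 18.4% of 15407 genes called higher. The *H2-K1* call was lost without adult replicate 1 (0.74), P3 replicate 2 (1.04) or P3 replicate 3 (1.03). *Tap2* (0.94, edgeR padj = 0.00333) and *Bst2* (-0.76, padj = 0.0184) passed the adjusted p but not the 2-fold limit.

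The genes whose levels most resembled *B2m* over 38 sums of 14 cell types, by Pearson correlation of log2(CPM + 1), were *Nfkbia* (0.89), *Lpar6* (0.88), *Ifnar2* (0.87), *Il10rb* (0.86) and *Pold4* (0.86). For *Psmb8* they were *Gngt2* (0.89), *Fes* (0.88), *Gsdmd* (0.88), *Xlr* (0.88) and *Hhex* (0.86). The other members correlated with *B2m* at 0.50 (*Ifitm3*) to 0.89 (*H2-D1*). Sums of a library share its preparation and depth, so these values describe likeness only.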

How the data were processed

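The authors prepared libraries from ACSA2-enriched striatal cells, aligned them with Cell Ranger to mm10 and clustered cells that passed their filter (over 500 genes, under 10% mitochondrial UMIs) with Seurat (3.1.1 in the labels' processing notes, while the study's methods name another release), per the labels and the study's methods. The deposited table holds raw UMI counts per gene and cell, and a deposited annotation gives cluster names, astroglial sub-clusters and a Slingshot pseudotime score per cell. From these, UMIs were summed per library and cell type, and sums were tested 3m against P3 with edgeR 4.0.16 (R 4.3.3): low counts filtered by filterByExpr, TMM scaling, a two-sided quasi-likelihood test and Benjamini-Hochberg adjustment over all genes tested. Calls required both an adjusted p no larger than 0.05 and a change of 2-fold or more. SE is that of the log2(fold change). Differences of age effects between types were interaction terms of a joint fit. Levels by type needed at least 10 cells in a library and were not tested. UMI counts from pooled animals carry sampling error that grows as counts fall.

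The named genes are the 10 members, genes of lists of related genes (*Mx1* of these was not in the table used here, and values of 1 other are not reported here), and the 5 genes most correlated with *B2m* and with *Psmb8* among genes with a mean of at least 10 CPM. Members and lists were chosen with earlier results of these data known. Sequences are RefSeq promoters on GRCm38.p6. On simulated counts, 97% of changes of 1.5 on the log2 scale were recovered in astroglia (13063 genes), 95% in endothelial cells (9873 genes) and 93% in microglia (2468 genes), and 87% of differences of 2 between endothelial and astroglial changes (10345 genes). Changes were put only into genes with at least 10 UMIs expected in the smallest library, and differences only into genes well counted in both types. The simulated differences had the same spread for every gene and no effect of the library. These rates thus do not cover genes with few UMIs, such as *Tap1* and *Psmb8* in astroglia. Alternatives were other size factors, DESeq2 1.42.0, other filters, thinned counts, subsets of cells and each library left out.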

Additional observations from a re-analysis of the deposited data

Results flagged for a closer look

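Age effects that differed between cell types were tested as interaction terms (edgeR, 3 libraries per age, all values on the log2 scale, adjusted over 10718 genes). The adult rise in endothelial clusters exceeded the change in astroglia by 4.06 for *Ifitm3* (padj = 3.3e-12), by 2.45 for *H2-K1* (padj = 1.43e-10) and by 1.92 for *Psmb8* (padj = 0.00312). It exceeded it by 1.65 for *H2-D1* (padj = 4.63e-05) and by 1.65 for *Tapbp* (padj = 2.07e-05). The *Psmb8* value fell to 1.31 (padj = 0.064) without adult replicate 3. In microglia the change of *Ifitm3* exceeded that in astroglia by 4.14 (padj = 6.91e-07), and by 1.44 (padj = 0.551) without cells that held a macrophage marker UMI. Macrophage markers were at 393 to 839 CPM in adult and 39.5 to 179 CPM in P3 microglia. For *B2m* the endothelial excess was 0.998 (padj = 0.00455), just under the 2-fold limit. The same cell suspensions gave both types of cell, so the terms compare cells of shared libraries.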

How the results depend on the processing

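Over the alternatives, no log2(fold change) of a member that was called changed sign. In endothelial cells, 2289 genes and 9 members were called. Thinned counts gave 971 genes and cells without myeloid or lymphocyte marker UMIs 1108, and leaving out 1 library gave 8 to 9 members and 1580 to 2312 genes. In astroglia 5 of 9 members tested and 4298 of 13469 genes were called. Thinned counts gave 3 of 6 members and 2723 of 9163 genes. The stricter cell filter gave 2 of 8 members and 3037 of 12877 genes, with 12 cells left in adult replicate 1. Telencephalic sub-clusters gave 2 of 8 and 3119 of 11847. Under that filter and in those sub-clusters the share of members called was near that of all genes. Cells without vascular or myeloid marker UMIs gave 3 of 8 and 3651 of 12175. Leaving 1 library out gave 3 to 4 members and 3230 to 4260 genes. In microglia, where 2 members and 271 genes were called, testing all genes with at least 1 UMI gave 1 member and 513 genes, DESeq2 1, library totals as the scaling 1, both replicates 1 left out 1, cells without macrophage marker UMIs 0 (neither of the 2 could be tested), and 1 library left out 0 to 2 members and 125 to 255 genes. In all barcodes, 3 members and 5319 genes became 5 and 5055 without both replicates 1. They became 2 to 5 members and 4700 to 5587 genes with 1 library left out. In the comparison of microglial with astroglial age effects, 1 member and 631 genes were called. With 1 library left out there were 1 to 3 members and 439 to 652 genes. Without cells holding macrophage marker UMIs there were 0 members and 500 genes. The cause of these moves was not tested, beyond the smaller numbers of cells and UMIs that thinning and subsets leave. Among END_17, END_7, microglia, PER_6, LOW_21 and astroglia, the highest mean stood in END_17 for 8 members and for 7 to 8 with 1 library left out.

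With library totals as the scaling, the middle log2(fold change) over all tested genes (median) moved from -0.04 to -0.22 in astroglia. In the comparison of endothelial with astroglial effects it moved from 0.04 to 0.41, and calls for a larger endothelial rise from 50.3 to 75.7% of calls. In that of microglial with astroglial effects it moved from -0.28 to 0.11, and such calls from 31.2 to 61.6%. In microglia higher calls went from 66.1 to 52.0%. Depth limits *Tap1*, *Psmb8* and *Psmb9* in astroglia, and *Tap1*, *Tap2* and *Psmb9* in microglia, which had few UMIs.

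Whether same-numbered libraries of both ages share more than a number is not given in the labels, whose internal sample names also match in number. Same-numbered astroglial libraries correlated at 0.21, 0.10 and 0.04 in their deviations, and 3 of 6 correlated best with their own number (0.48, 0.44 and -0.00, and 4 of 6, in all barcodes). With the number as a replicate block, 5 members and 4366 genes were called in astroglia, 9 and 2319 in endothelial cells, 2 and 277 in microglia, and 3 and 5483 in all barcodes.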
